A study of Homo sapiens with 12 samples.

Results

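Vemurafenib (Vem), an inhibitor of mutant BRAF, was added to 501Mel cells that were exposed to resveratrol (RSV), a plant stilbene used in this study as an antagonist of the aryl hydrocarbon receptor (AhR). The comparison is RSV+Vem against RSV and holds 4 of the 12 libraries of the series, chosen by the treatment in their labels. 501Mel is an established human melanoma line. All cells were treated for 48 h: the 2 RSV libraries with 5 µM RSV, the 2 RSV+Vem libraries with 5 µM RSV and 1 µM Vem, the 2 Vem libraries with 1 µM Vem, and the 2 vehicle libraries with DMSO alone. RNA was read as a count of read pairs per gene. Nothing in the labels says that replicates came from separate cultures, so p-values measure the spread between these libraries, which may be technical. One cell line and 1 dose of each agent limit what the groups stand for.

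Mutant BRAF keeps the MEK and ERK kinases active, and ERK switches on a set of early transcription factors, cyclin D1 and its own inhibitors, the DUSP phosphatases and the Sprouty proteins. In melanoma cells BRAF inhibition is known to silence this output, to halt proliferation and to raise pigmentation genes that are driven by the transcription factor MITF. AhR is a ligand-activated transcription factor that induces CYP1A1 and its own repressors. The comparison asks which parts of the Vem response remain when RSV is present.

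The promoters below come from a small panel of pigmentation and proliferation genes and are those in which the motif looked for was found. The motifs recur in the lists of their genes. Each is the 250 bases before the RefSeq start of the gene, on the strand of the gene and in build GRCh38.p14, written 5′ to 3′. Capitals mark CATGTG (either strand), an E-box form of the kind MITF binds, in the first 3. They mark TTTCCCGC or TTTGGCGC (either strand), a form of the E2F site, in POLE, and TTTGAA (either strand), the cell cycle homology region, in NCAPG.
OCA2 (chr15:28099316-28099565, minus strand): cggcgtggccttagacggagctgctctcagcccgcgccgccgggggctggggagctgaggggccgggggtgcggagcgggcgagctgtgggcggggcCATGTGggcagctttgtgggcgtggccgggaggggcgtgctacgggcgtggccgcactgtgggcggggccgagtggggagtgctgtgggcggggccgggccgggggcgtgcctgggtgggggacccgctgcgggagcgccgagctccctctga
TYRP1 (chr9:12693135-12693384, plus strand): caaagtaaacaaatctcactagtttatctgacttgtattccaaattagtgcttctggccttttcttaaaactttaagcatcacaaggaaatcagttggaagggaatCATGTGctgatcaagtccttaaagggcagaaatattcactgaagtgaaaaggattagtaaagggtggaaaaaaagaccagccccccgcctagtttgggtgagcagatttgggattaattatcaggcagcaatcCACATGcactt
TYR (chr11:89177625-89177874, plus strand): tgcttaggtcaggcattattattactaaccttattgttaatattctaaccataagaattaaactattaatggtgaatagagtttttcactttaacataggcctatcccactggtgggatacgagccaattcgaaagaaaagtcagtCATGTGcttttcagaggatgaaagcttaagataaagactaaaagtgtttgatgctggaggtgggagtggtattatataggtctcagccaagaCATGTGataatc
POLE (chr12:132687343-132687592, minus strand): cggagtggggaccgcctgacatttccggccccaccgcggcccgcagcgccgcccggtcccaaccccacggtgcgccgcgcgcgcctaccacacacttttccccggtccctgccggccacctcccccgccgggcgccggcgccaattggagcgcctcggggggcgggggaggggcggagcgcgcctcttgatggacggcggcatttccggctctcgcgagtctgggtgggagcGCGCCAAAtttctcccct
NCAPG (chr4:17810729-17810978, plus strand): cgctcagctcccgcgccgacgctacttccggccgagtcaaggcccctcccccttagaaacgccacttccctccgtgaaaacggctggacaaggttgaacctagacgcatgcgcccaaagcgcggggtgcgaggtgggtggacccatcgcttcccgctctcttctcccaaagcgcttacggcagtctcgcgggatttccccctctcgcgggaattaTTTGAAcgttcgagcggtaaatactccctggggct
The E-box lies 153 bases before the start in OCA2, at 144 and 11 bases in TYRP1, and at 104 and 12 bases in TYR. The E2F form lies 18 bases before the start of POLE, and the cell cycle homology region lies 35 bases before that of NCAPG. CATGTG was found in 7 of the 11 promoters matched for the melanin list, against 5.68% of those matched for all tested genes. The E2F forms were found in 14 of 36 promoters of the replication list, against 3.08% for tested genes. TTTGAA was found in 17 of 33 promoters of the mitotic list, against 8.47% for tested genes. Over all 27305 promoters the shares were 9.54%, 1.96% and 13.6%. In the same panel CATGTG was not found for DCT and MLANA, the E2F forms not for RRM2, and TTTGAA not for AURKB. These are matches of letters and no evidence of binding. The matched promoters cover 10188 of the 16080 genes tested.

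Gene counts summed to 15375956 and 18168534 in the RSV libraries and to 17631920 and 8378655 in the RSV+Vem libraries. RNA integrity numbers were 9.2 and 9.5 with RSV and 8.7 and 8.6 with RSV+Vem, and no other library of the 12 was below the latter 2. ERCC spike-ins held 0.0349% and 0.0413% of the counts with RSV, and 0.0389% and 0.0903% with RSV+Vem, so replicate 2 of RSV+Vem stood apart in depth and in spike-in share. The part of depth, RNA integrity and spike-in share in the results was not tested. The defining melanocytic genes PMEL, MLANA, TYR, DCT, MITF and SOX10 were all expressed. Of 28 markers of other cells, 17 held at most 10 counts in each of the 4 libraries. KRT5, KRT14 and KRT1 of keratinocytes, PECAM1 and CLDN5 of endothelium, and CD3E of T cells held at most 1 count in any of the 4 libraries, and PTPRC at most 3. The other 11 held more. KRT10, of keratinocytes, was at 271 and 272 counts with RSV and at 391 and 149 with RSV+Vem, and 8 genes, FAP, PDGFRA, COL6A3, THY1, CD68, ITGAM, VWF and KDR, lay between 1 and 45 counts. LYZ, of myeloid cells, was at 43 and 49 counts with RSV and at 3 and 1 counts with RSV+Vem, and LUM, of fibroblasts, at 164 and 247 counts with RSV and at 109 and 64 with RSV+Vem. LUM was lower by a log2 fold change of -0.85, a call lost without RSV replicate 2 or without RSV+Vem replicate 1. The 5 of 7 fibroblast markers tested summed to 15.7 and 19.5 CPM with RSV and 10 and 12.6 CPM with RSV+Vem. The 3 of 8 leukocyte markers tested summed to 3.98 and 5.10 CPM against 1.54 and 2.81 CPM. Of the 7 keratinocyte markers only KRT10 was tested, at 16.3 and 14.3 CPM against 20.8 and 16.8 CPM. The 2 of 6 endothelial markers tested summed to 1.81 and 1.31 CPM against 1.97 and 1.91 CPM.

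Vem still changed a large part of the transcriptome in cells that received RSV. Of 16080 genes tested, 1807 were higher (11.2%) and 2113 were lower (13.1%) in RSV+Vem than in RSV, in edgeR's quasi-likelihood test at a Benjamini-Hochberg adjusted p below 0.05, which is what "called" means hereafter. Without RSV replicate 2 there were 2674 calls, and without RSV+Vem replicate 1 there were 1975. In all of the 5 fits, those of all libraries and of each of the 4 libraries left out, 593 genes were higher (3.69%) and 850 were lower (5.29%). Vem against vehicle, which shares no library with this comparison, changed more genes: 4082 were higher (25.4%) and 4341 lower (27%). Of the 3920 genes called with RSV, 2869 (73.2%) were called in the same direction without RSV, and these were 34.1% of the 8423 genes called there. Across the 16080 genes the 2 log2 fold changes correlated at r = 0.62 (Pearson) and rho = 0.59 (Spearman), as a description, since genes are not independent replicates. The difference between both responses was called for 1933 genes with the more positive value with RSV (12%) and for 1719 with the more negative value (10.7%).

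Scaling to the ERCC spike-ins in place of TMM lowered the median log2 fold change of all genes from 0.002 to -0.523, and left 19 genes higher and 464 lower. Of differences between both responses it left 6 called, all positive, against 3652 with TMM. Differences called in what follows are those with TMM. With RSV+Vem replicate 2 left out, a setting chosen after seeing the data, the spike-in median was -0.044, with 179 genes higher and 305 lower. All changes that follow are therefore relative to the bulk of the transcriptome. Counts of called list members with RSV stand beside 11.2% higher and 13.1% lower over all tested genes. Counts without RSV stand beside 25.4% higher and 27% lower. Counts of called differences stand beside 12% with the more positive and 10.7% with the more negative value with RSV.

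**Figure D1:**
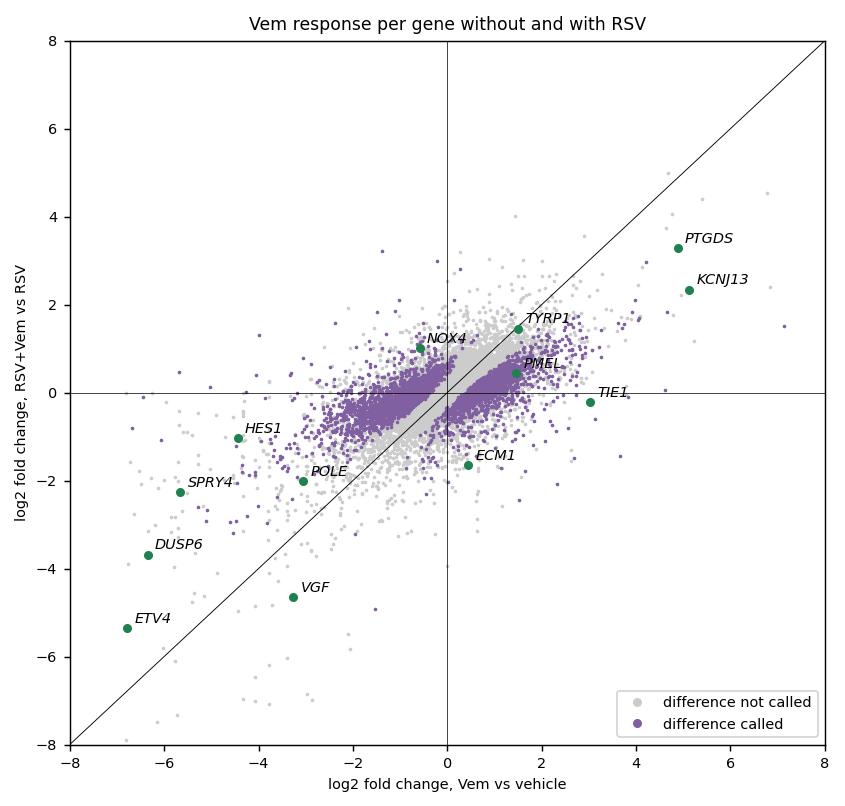
Each point is 1 of the tested genes, with the log2 fold change of Vem against vehicle on the horizontal axis and of RSV+Vem against RSV on the vertical axis. The diagonal marks equal responses, purple points are genes whose difference was called, green points are named genes, and 4 genes lie outside the axes. SPRY4 and DUSP6 lie above the diagonal on the negative side, and PMEL and TIE1 lie below it on the positive side.

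Most listed DUSP and ETS genes, which lie below ERK, fell in RSV-treated cells. ERK activity itself was not measured in these libraries. The difference from Vem alone was called for 6 of 11 genes, each with the more positive value with RSV, against 12% of all tested genes. Among the DUSP phosphatases and ETS factors, 7 of 11 tested genes were lower and none was higher, the median log2 fold change was -1.53, and each of the 7 was lower in all 5 fits. ETV4, an ETS factor induced by ERK, was at 73.4 and 60.1 CPM (counts relative to library size, with TMM factors) with RSV and at 1.65 and 1.57 CPM with RSV+Vem. The groups lie far apart, a 40.9-fold lower level with a log2 fold change of -5.35 ± 0.16 (SE, edgeR adjusted p = 5.22e-12). DUSP6, the phosphatase that shuts off ERK, was at 190 and 155 CPM with RSV and at 14.5 and 11.9 CPM with RSV+Vem. That is a 12.9-fold lower level (log2 fold change -3.69 ± 0.17, adjusted p = 9.52e-10). ETV5, a close relative of ETV4, was at 396 and 410 CPM against 66.2 and 67.9 CPM (-2.59 ± 0.10, adjusted p = 1.77e-10). Without RSV the log2 fold changes were -6.79 for ETV4, -6.35 for DUSP6 and -4.02 for ETV5, and all 3 differences were called.

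Sprouty and SPRED proteins block signaling between receptors and RAS. Of 9 tested members, 4 were lower and none was higher (median -0.30), and without RSV+Vem replicate 1 only 2 were lower, SPRY4 and SPRY2. SPRY4 was at 70.1 and 62.3 CPM with RSV and at 13.8 and 13.7 CPM with RSV+Vem (-2.27 ± 0.16, adjusted p = 6.35e-08). SPRY2 was at 31.6 and 22.2 CPM against 8.62 and 6.41 CPM (-1.80 ± 0.19, adjusted p = 7.04e-06). Both fell further without RSV, with log2 fold changes of -5.66 and -4.08, and the difference was called for both. In the Vem libraries SPRY4 was at 1.67 and 0.615 CPM, below both RSV+Vem libraries. For DUSP6 the Vem libraries were at 1.81 and 0.692 CPM, and for ETV4 at 1.11 and 0.922 CPM.

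Early response genes of the AP-1, EGR and MYC families lie directly downstream of ERK. Of 16 tested, 10 were lower and 2 were higher (median -1.27), and all 10 were lower in all 5 fits. EGR1 was at 142 and 81.5 CPM with RSV and at 9.74 and 5.85 CPM with RSV+Vem (-3.77 ± 0.44, adjusted p = 2.04e-05). FOSL1, an AP-1 subunit, was at 9.95 and 5.57 CPM against 0.958 and 0.562 CPM (-3.22 ± 0.34, adjusted p = 6.31e-06). ATF3, a stress-induced member of the wider AP-1 family, went the other way, from 34.5 and 19.4 CPM to 64.1 and 58.1 CPM (1.19 ± 0.24, adjusted p = 0.00193). Without RSV, ATF3 had a log2 fold change of 0.09 that was not called, and the difference was called. JUN, an AP-1 subunit, was the other gene that was higher, at 60.7 and 27.3 CPM with RSV and 99.7 and 72.4 CPM with RSV+Vem (0.98). Without RSV it was not called (0.32). MYC itself was not called in either direction with RSV (-0.36).

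**Figure D2:**
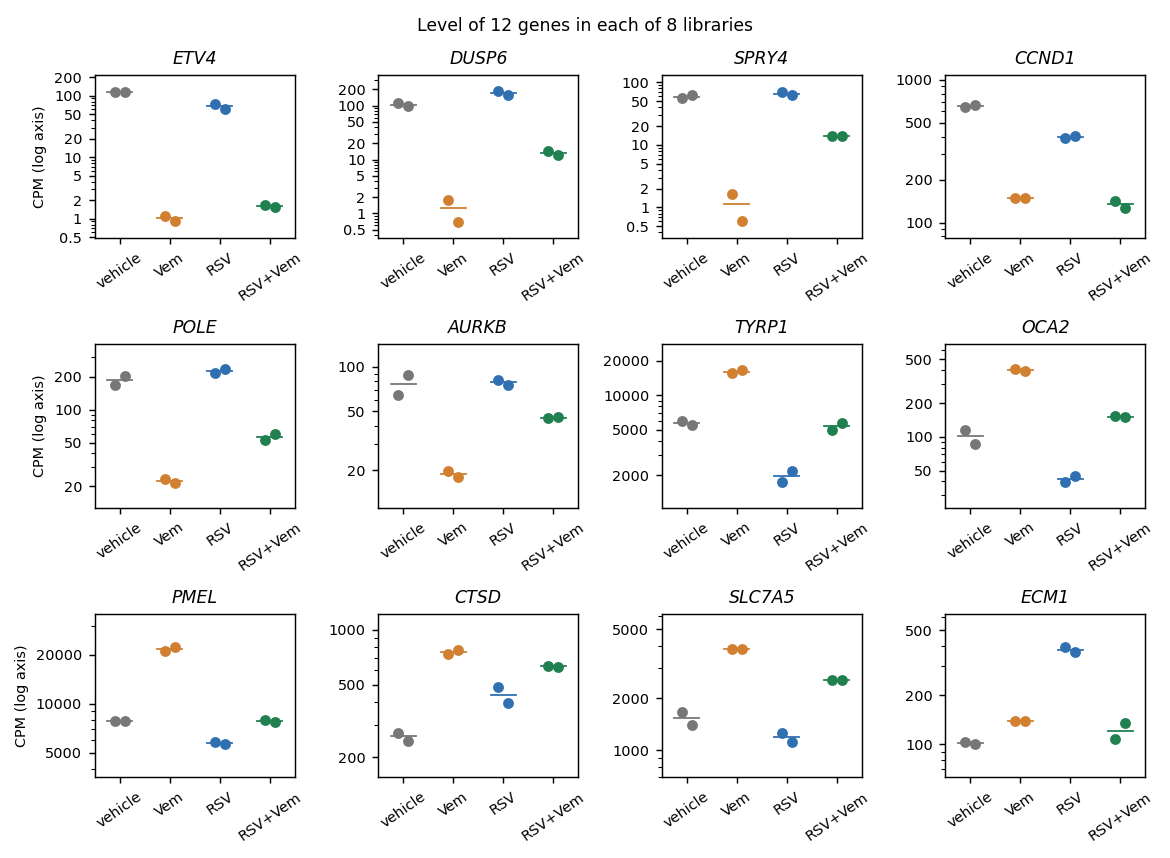
Dots are the TMM-scaled CPM of 12 genes in the 2 libraries of each group on log axes, and horizontal bars are group means. ETV4, DUSP6, SPRY4, CCND1, POLE, AURKB and ECM1 are lower in both RSV+Vem libraries than in both RSV libraries, and TYRP1, OCA2, PMEL, CTSD and SLC7A5 are higher, with PMEL and CTSD at a lower level than in RSV on average once scaled to the spike-ins.

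Proliferation genes fell as a group, by less than without RSV. The G1 list, cyclins, their kinases and inhibitors, had 8 of 19 members lower and 1 higher (median -0.32), with 5 lower without RSV replicate 2 and 4 lower without RSV+Vem replicate 1. The median was -0.17 without RSV+Vem replicate 1 and -0.20 without RSV+Vem replicate 2. CCND1, cyclin D1, was at 393 and 403 CPM with RSV and at 141 and 127 CPM with RSV+Vem, a 2.97-fold lower level (-1.57 ± 0.09, adjusted p = 5.54e-09). These end levels sit close to the 149 and 150 CPM of the Vem libraries, from a lower start than the 644 and 667 CPM of vehicle. CDC25A, the phosphatase that activates CDK2, was at 73.3 and 70.8 CPM against 39.6 and 43.5 CPM (-0.80 ± 0.14, adjusted p = 0.000868). CDKN2B, the CDK4/6 inhibitor p15, fell with RSV from 40.1 and 32.4 CPM to 19.4 and 16.9 CPM (-0.99 ± 0.15, adjusted p = 0.000209). Without RSV it rose by a log2 fold change of 0.49, and the difference was called. CDKN1B, the inhibitor p27, was at 39.5 and 42.0 CPM against 62.7 and 76.7 CPM (0.77 ± 0.23, adjusted p = 0.0212), a call lost without RSV replicate 1, RSV replicate 2 or RSV+Vem replicate 2 and in DESeq2, with log2 fold changes of 0.72, 0.81 and 0.62 in the first 3. CDKN1A, the inhibitor p21, was near the limit of detection at 1.39 and 0.893 CPM with RSV and 1.17 and 1.01 CPM with RSV+Vem.

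The list of DNA replication and nucleotide synthesis had 39 of 41 members lower and none higher, with a median of -0.55. Of these, 23 were lower in all 5 fits, and 25 were lower without RSV+Vem replicate 1. POLE, the catalytic subunit of DNA polymerase epsilon, was at 216 and 234 CPM with RSV and at 52.9 and 59.5 CPM with RSV+Vem. This 4.02-fold lower level was the largest fall in the list (-2.01 ± 0.11, adjusted p = 5.54e-09). RRM2, a subunit of ribonucleotide reductase, was at 262 and 295 CPM against 134 and 160 CPM (-0.92 ± 0.13, adjusted p = 0.000114). E2F8, a repressor in the E2F family, was at 33.8 and 34.1 CPM against 17.4 and 18.7 CPM (-0.92 ± 0.13, adjusted p = 0.00013). Without RSV all 41 genes of the list were lower with a median of -1.48, and for 40 of them the fall was called as smaller with RSV. Of all tested genes, 27% were lower without RSV, and 12% had a called difference with the more positive value with RSV. E2F1, the founding activator of the family, was at 87.3 and 67.5 CPM against 57.3 and 54.3 CPM (-0.47 ± 0.14, adjusted p = 0.0235). That call was lost without RSV replicate 1 (-0.27), RSV+Vem replicate 1 (-0.51) or RSV+Vem replicate 2 (-0.43).

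The genes of mitosis had the widest gap between both settings among the proliferation lists. Of 40 spindle and kinetochore genes, 18 were lower and 1 higher with RSV, at a median of -0.35, and 7 were lower without RSV replicate 2 and 7 without RSV+Vem replicate 1 (median -0.20). Without RSV all 40 were lower at a median of -1.78 (27% of all tested genes). The difference was called for all 40, each with the more positive value with RSV (12% of all tested genes). AURKB, the kinase of the chromosomal passenger complex, was at 81.5 and 75.2 CPM with RSV and at 44.8 and 45.8 CPM with RSV+Vem (-0.79 ± 0.13, adjusted p = 0.000462). Its Vem libraries were at 19.8 and 18.1 CPM. NCAPG, a condensin subunit whose promoter is shown above, was at 132 and 151 CPM against 82.3 and 89.1 CPM (-0.73 ± 0.12, adjusted p = 0.000532). MKI67, which encodes the proliferation marker Ki-67, was at 340 and 356 CPM against 205 and 226 CPM (-0.70 ± 0.11, adjusted p = 0.000364), where Vem alone gave -1.54.

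Homologous recombination and Fanconi repair genes, which are expressed mostly in S and G2 phase, had 17 of 24 members lower and none higher (median -0.56). Without RSV+Vem replicate 1 the number was 9, the same number as in all 5 fits. FANCA, of the Fanconi core complex, was at 63.1 and 69.5 CPM against 31.6 and 35.9 CPM (-0.98 ± 0.13, adjusted p = 4.8e-05). FANCI was at 293 and 333 CPM against 152 and 177 CPM (-0.93 ± 0.10, adjusted p = 5.37e-06), and BLM, the Bloom helicase, at 75.8 and 90.5 CPM against 43.1 and 51.5 CPM (-0.82 ± 0.13, adjusted p = 0.000263). Without RSV, 23 of the 24 were lower at a median of -1.63, and the fall was called as smaller with RSV for 19. The shares over all tested genes were 27% lower and 12% with the more positive value with RSV.

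Among 22 tested p53 target genes, 6 were lower and 2 higher, at a median of -0.02 that was -0.18 without RSV replicate 1, -0.205 without RSV replicate 2 and -0.17 without RSV+Vem replicate 2. GDF15, a secreted stress cytokine, was at 642 and 302 CPM with RSV and at 110 and 81.2 CPM with RSV+Vem (-2.30 ± 0.35, adjusted p = 0.000222), with -1.65 when RSV replicate 1 was left out. PLK3, a stress kinase, was at 27.7 and 16.4 CPM against 6.33 and 5.29 CPM (-1.89 ± 0.24, adjusted p = 3.47e-05), and AEN, a nuclease induced by p53, at 72.6 and 52.6 CPM against 24.9 and 23.1 CPM (-1.38 ± 0.16, adjusted p = 2.17e-05).

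The BCL2 family sets the threshold for apoptosis, and 6 of its 16 tested genes were higher and 3 lower, at a median of 0.21 that turned to -0.33 under spike-in scaling. Without RSV+Vem replicate 1, 3 were higher and 2 lower, and the median was 0.35 without RSV replicate 1 and 0.07 without RSV replicate 2. BBC3, the death-promoting protein PUMA, was at 15.3 and 8.77 CPM with RSV and at 33.0 and 26.6 CPM with RSV+Vem (1.33 ± 0.25, adjusted p = 0.00136). BMF, another death-promoting BH3-only member, was at 21.3 and 19.8 CPM against 34.2 and 31.7 CPM (0.69 ± 0.11, adjusted p = 0.000429). BCL2L11, which encodes BIM, was at 23.6 and 24.3 CPM against 33.9 and 33.5 CPM (0.49 ± 0.12, adjusted p = 0.00803), a call lost without RSV+Vem replicate 1 (0.48) and a direction lost under spike-in scaling (-0.03). Of the members that protect cells, BCL2A1 was at 23.7 and 21.2 CPM against 13.4 and 12.7 CPM (-0.78 ± 0.13, adjusted p = 0.000528). It rose with Vem alone (0.50), and the difference was called. MCL1 was at 271 and 240 CPM against 190 and 204 CPM (-0.38 ± 0.09, adjusted p = 0.00746), a call lost without RSV replicate 1 (-0.29) or RSV+Vem replicate 1 (-0.32). BID, a death-promoting BH3-only member, was at 20.5 and 20.6 CPM against 11.6 and 11.5 CPM (-0.83 ± 0.17, adjusted p = 0.00193).

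Pigmentation genes with the largest rises were the transporter and enzymes of melanin synthesis. In the melanin and melanosome matrix list 6 of 13 genes were higher and 1 lower, at a median of 0.11, and 5 were higher in all 5 fits. The median was 0.05 without RSV replicate 1, 0.06 without RSV+Vem replicate 2 and 0.26 without RSV replicate 2. OCA2, a melanosomal transport protein, was at 39.2 and 44.6 CPM with RSV and at 155 and 150 CPM with RSV+Vem. It rose 3.63-fold (1.86 ± 0.12, adjusted p = 3.09e-08). TYRP1, an enzyme of melanin synthesis, was at 1752 and 2170 CPM against 5023 and 5731 CPM (1.46 ± 0.12, adjusted p = 3.09e-07), and DCT, which acts in the same pathway, at 1410 and 2003 CPM against 3757 and 4674 CPM (1.30 ± 0.14, adjusted p = 7.95e-06). For OCA2, TYRP1 and DCT the log2 fold changes without RSV were 1.98, 1.49 and 1.51, and no difference was called. Their RSV+Vem levels stayed below those of the Vem libraries, which for TYRP1 were 15550 and 16730 CPM, and the TYRP1 level with both agents was close to the 5948 and 5511 CPM of vehicle.

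The remaining pigment genes moved less. PMEL, the fibril protein of the melanosome, was at 5811 and 5699 CPM against 7991 and 7711 CPM (0.45 ± 0.07, adjusted p = 0.000437), where Vem alone gave 1.46, and the difference was called. GPR143, a melanosomal receptor, was at 186 and 188 CPM against 264 and 260 CPM (0.49 ± 0.08, adjusted p = 0.000321), also called as a smaller rise than without RSV (0.90). TYR, tyrosinase, was at 598 and 646 CPM against 839 and 778 CPM (0.38 ± 0.08, adjusted p = 0.00394), with the call lost without RSV+Vem replicate 1 (0.32). MLANA was at 638 and 763 CPM against 729 and 781 CPM, with overlapping groups and no call (0.11 ± 0.12, adjusted p = 0.539). Under spike-in scaling PMEL, GPR143 and TYR had log2 fold changes of -0.07, -0.03 and -0.12. Of 8 pigmentation genes that the study itself plotted, which are no independent choice, 5 were higher and none lower. Without RSV replicate 1, RSV+Vem replicate 1 or RSV+Vem replicate 2 only 2 were higher, and the median of 0.29 turned to -0.23 under spike-in scaling.

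Among 21 genes of melanosome transport and sorting 6 were higher and 3 lower (median 0.25, and -0.28 under spike-in scaling). The list's count rested on single libraries, with 1 higher without RSV replicate 1, 3 without RSV+Vem replicate 1 and 2 without RSV+Vem replicate 2. RAB32, a GTPase of melanosome biogenesis, was at 147 and 150 CPM against 275 and 292 CPM (0.93 ± 0.09, adjusted p = 3.64e-06). MREG, the melanosome transport factor melanoregulin, was at 17.5 and 19.0 CPM against 10.9 and 10.9 CPM (-0.75 ± 0.13, adjusted p = 0.000671), and RAB17 at 55.8 and 51.3 CPM against 34.6 and 31.3 CPM (-0.70 ± 0.15, adjusted p = 0.00306).

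Regulators of the melanocyte lineage had a median of 0.40, which turned to -0.09 under spike-in scaling. Of 13 tested, 8 were higher and 1 lower, and 5 were higher in all 5 fits. TFAP2A, a transcription factor that acts beside MITF, was at 73.8 and 80.8 CPM with RSV and at 272 and 261 CPM with RSV+Vem (1.78 ± 0.09, adjusted p = 2.05e-09). The rise was larger than without RSV (1.36), by a difference that was called. IRF4, which cooperates with MITF at TYR, was at 27.6 and 34.3 CPM against 67.2 and 68.3 CPM (1.13 ± 0.13, adjusted p = 1.96e-05). PPARGC1A, the coactivator PGC1α of mitochondrial genes and an MITF target, was at 156 and 213 CPM against 316 and 377 CPM (0.91 ± 0.15, adjusted p = 0.000327). MITF was at 457 and 634 CPM against 733 and 851 CPM (0.54 ± 0.14, adjusted p = 0.012), and the call was lost without RSV replicate 1 (0.32) or RSV+Vem replicate 2 (0.43). SOX10 was at 441 and 390 CPM against 587 and 511 CPM (0.40 ± 0.10, adjusted p = 0.00616), lost without RSV replicate 2 (0.32) or RSV+Vem replicate 1 (0.30). Spike-in scaling gave -0.01 for MITF and -0.09 for SOX10. Vem alone left MITF uncalled (0.21), at 1216 and 1260 CPM against 1197 and 938 CPM in vehicle.

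**Figure D3:**
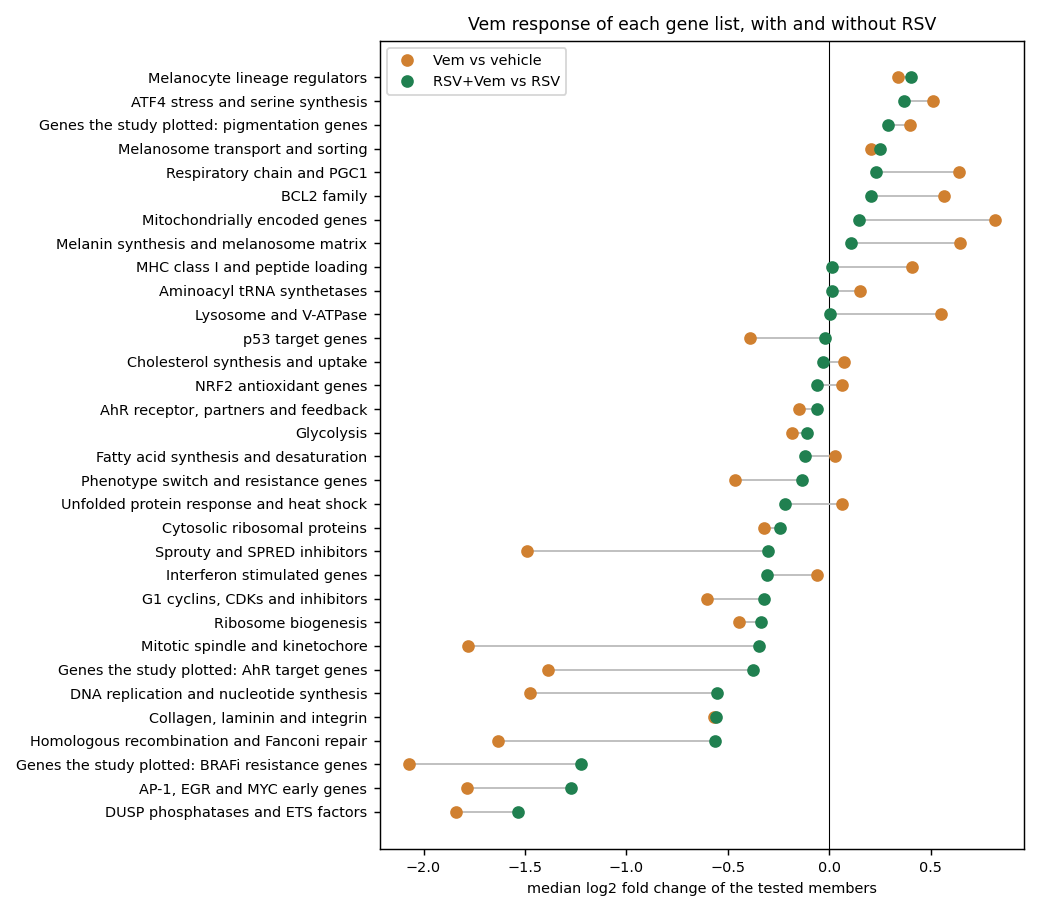
Each row is 1 gene list, with the median log2 fold change of its tested members for RSV+Vem against RSV in green and for Vem against vehicle in orange. The mitotic, replication, repair and Sprouty medians lie far to the right of their orange points, those of lysosomal and mitochondrially encoded genes lie to the left, and those of collagen and lineage genes lie close together. Under spike-in scaling the medians of the lineage, ATF4, study pigmentation, melanosome transport, respiratory chain and BCL2 lists are below 0.

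The list of phenotype switch and drug resistance genes holds genes of both the differentiated and the dedifferentiated melanoma state. Its counts therefore do not measure either state. Of 22 tested, 6 were higher and 6 lower, at a median of -0.14. Without RSV+Vem replicate 1, 3 were higher and 3 lower, and without RSV replicate 1 the median was 0.04. ZEB2 and SNAI2, transcription factors of the differentiated melanocytic state, were among the 6 that rose. ZEB2 was at 129 and 155 CPM against 217 and 238 CPM (0.68 ± 0.10, adjusted p = 0.000118), and SNAI2 at 52.3 and 61.8 CPM against 85.6 and 91.8 CPM (0.63 ± 0.12, adjusted p = 0.00142). The receptors linked to resistance were barely expressed. EGFR was at 0.543 and 0.21 CPM with RSV and 0.213 and 0.113 CPM with RSV+Vem, NGFR at 1.75 and 1.79 CPM against 1.49 and 1.01 CPM, neither was called, and AXL was too low to be tested. Of the study's own resistance genes, 2 of 4 tested were lower, and 1 of 4 when any of the 4 libraries was left out. ITGA1, an integrin subunit for collagen, was the one lower in all 5 fits, at 9.22 and 9.40 CPM against 2.39 and 2.92 CPM (-1.84 ± 0.22, adjusted p = 2.57e-05).

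Collagen, laminin and integrin genes had 14 of 27 members lower and none higher, at a median of -0.56, and 11 were lower in all 5 fits. LAMA4, a laminin chain of vessel walls and tumor matrix, was at 22.7 and 23.2 CPM with RSV and at 7.61 and 8.66 CPM with RSV+Vem (-1.51 ± 0.15, adjusted p = 4.62e-06). Without RSV the fall was smaller (-0.54), from 7.64 and 7.24 CPM in vehicle to 5.91 and 4.23 CPM, and the difference was called. The RSV+Vem levels of LAMA4 were thus near those of vehicle.

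AhR target genes were the readout of the receptor that RSV was used to block. CYP1A1, its classic target, was at 69.0 and 67.5 CPM with RSV and at 22.2 and 28.1 CPM with RSV+Vem (-1.46 ± 0.12, adjusted p = 6.33e-07). The vehicle libraries held 23.5 and 23.1 CPM, below both RSV libraries and close to RSV+Vem, and the Vem libraries 13.6 and 12.4 CPM. AHR itself was at 80.2 and 80.4 CPM against 46.0 and 56.3 CPM (-0.66 ± 0.11, adjusted p = 0.000465), a smaller fall than with Vem alone (-1.57) by a difference that was called. HSP90AA1, a chaperone of the receptor, was at 3058 and 3453 CPM against 2027 and 2361 CPM (-0.57 ± 0.11, adjusted p = 0.00168). TIPARP, a feedback inhibitor of AhR, did not pass the test at 70.7 and 60.8 CPM against 64.9 and 66.3 CPM (adjusted p = 0.989), and its difference from Vem alone (-0.59) was called. CYP1B1 was under 1 CPM in all 4 libraries. Of 12 tested genes of the receptor, its partners and its feedback, 4 were lower and 1 higher, at a median of -0.06 that was 0.00 without RSV+Vem replicate 1. The 1 higher was AHRR, the repressor that AhR induces, at 25.1 and 23.0 CPM with RSV and at 43.7 and 35.1 CPM with RSV+Vem (0.72 ± 0.15, adjusted p = 0.00196), a call lost without RSV+Vem replicate 1 (0.545). It rose more with Vem alone (1.57), by a difference that was called.

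Of the 6 tested AhR target genes that the study plotted, 2 were lower and none higher (median -0.38, and -0.20 without RSV replicate 1). RUNX2, an osteogenic and invasion-linked transcription factor, was at 7.96 and 7.67 CPM against 3.35 and 3.37 CPM (-1.22 ± 0.19, adjusted p = 0.000257). INHBA, a subunit of activin, was at 1.02 and 0.893 CPM with RSV and at 0 in both RSV+Vem libraries, so that it was at least 3.86-fold lower against a floor of 3 counts per library, and DESeq2's own filter on low counts left it without an adjusted p. The NRF2 list, which shares inducers with AhR, had 3 of 20 genes higher and 2 lower, and 1 higher without RSV replicate 2. FTH1, the ferritin heavy chain, was the 1 that was higher in all 5 fits, at 3465 and 3080 CPM against 6341 and 5900 CPM (0.90 ± 0.08, adjusted p = 1.97e-06).

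**Figure D4:**
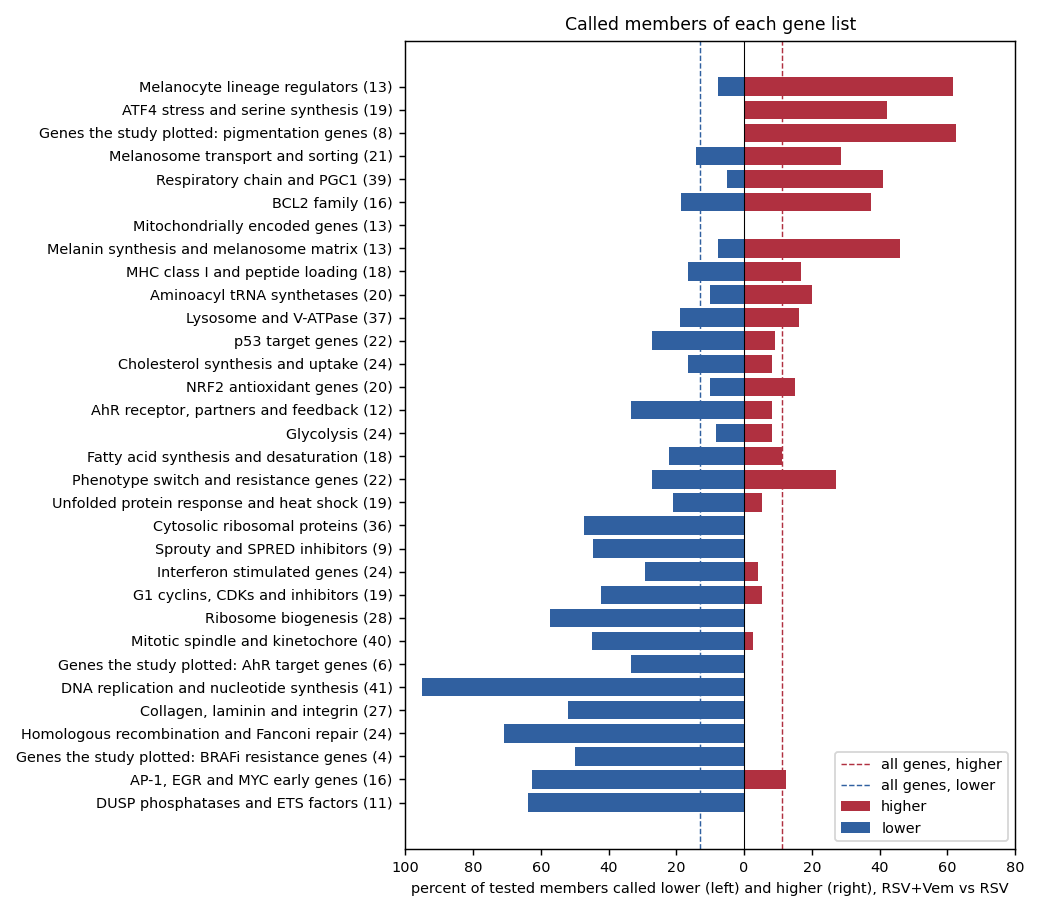
Bars give the percentage of tested members (number in parentheses) called lower, to the left, or higher, to the right, in RSV+Vem against RSV, and dashed lines give the same percentages over all genes, 13.1% and 11.2%. The longest bar to the left is DNA replication, with 39 of 41 members lower, and mitochondrially encoded genes have no bar. The bars to the right are longest for the study's pigmentation genes and the lineage regulators, whose medians turned below 0 under spike-in scaling.

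Of 37 lysosomal and V-ATPase genes 6 were higher and 7 lower at a median of 0.00, whereas with Vem alone 26 were higher and 3 lower at a median of 0.55. The difference was called for 25, each with the lower value with RSV. Of all tested genes, 25.4% were higher and 27% lower with Vem alone, and 10.7% had a called difference with the lower value with RSV. CTSD, the protease cathepsin D, was at 484 and 398 CPM with RSV and at 635 and 627 CPM with RSV+Vem (0.52 ± 0.10, adjusted p = 0.00117), from a level above the 273 and 247 CPM of vehicle. ATP6AP1, of the proton pump, was at 270 and 236 CPM against 372 and 349 CPM (0.51 ± 0.09, adjusted p = 0.000608). Spike-in scaling left both near 0, at -0.02 and -0.004. GUSB, an enzyme that degrades glycans, fell. It was at 99.8 and 97.2 CPM against 51.8 and 49.0 CPM (-0.96 ± 0.09, adjusted p = 3.43e-06). NPC1, the lysosomal cholesterol exporter, was at 163 and 171 CPM against 103 and 107 CPM (-0.67 ± 0.09, adjusted p = 6.36e-05), without a called change with Vem alone (0.18) and with a called difference.

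Respiratory chain genes had 16 of 39 members higher and 2 lower (median 0.23, and -0.29 under spike-in scaling), with 10 higher without RSV replicate 2 and 5 without RSV+Vem replicate 1. These 39 members include the coactivators PPARGC1A, also among the lineage regulators above, and PPARGC1B, beside genes of the chain itself. With Vem alone 32 members were higher and 4 lower (median 0.64), against 25.4% and 27% of all tested genes. The difference was called for 22 with the lower value with RSV and for 1 with the higher value, against 10.7% and 12% of all tested genes. COX5B, a cytochrome c oxidase subunit, was at 167 and 145 CPM against 272 and 218 CPM (0.65 ± 0.12, adjusted p = 0.00072), and the rise was smaller than with Vem alone (1.35) by a difference that was called. PPARGC1B, a relative of PPARGC1A, went the other way, from 15.8 and 19.0 CPM to 6.38 and 8.21 CPM (-1.29 ± 0.19, adjusted p = 0.000136). None of the 13 genes encoded in the mitochondrial genome was called by edgeR with RSV (median 0.15, and between 0.02 and 0.25 with 1 of the 4 libraries left out), 4 had an unadjusted p below 0.05 and DESeq2 called 1, while 12 were higher with Vem alone (median 0.82) and 8 differed.

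The lists of metabolism held called genes in both directions, at shares not far from the 11.2% higher and 13.1% lower of all tested genes. Glycolysis had 2 of 24 genes higher and 2 lower (median -0.11), and 1 each way without RSV+Vem replicate 1 (median -0.06), with a median of -0.17 without RSV+Vem replicate 2. HK2, the hexokinase that starts the pathway, was at 122 and 95.5 CPM against 40.1 and 40 CPM (-1.44 ± 0.31, adjusted p = 0.00323), and ALDOA, aldolase, at 1296 and 1143 CPM against 1751 and 1779 CPM (0.53 ± 0.10, adjusted p = 0.000881, and -0.003 under spike-in scaling). Cholesterol synthesis and uptake had 2 of 24 genes higher and 4 lower (median -0.03), with 1 higher and 2 lower without RSV replicate 2 and 1 each way without RSV+Vem replicate 1. Fatty acid synthesis had 2 of 18 higher and 4 lower (median -0.12). Without RSV replicate 2 or RSV+Vem replicate 1, 2 were lower and the median was -0.03, and without RSV+Vem replicate 2 it was -0.23. FASN, fatty acid synthase, was at 209 and 190 CPM against 122 and 116 CPM (-0.75 ± 0.13, adjusted p = 0.000625), ACSL1 at 369 and 431 CPM against 226 and 262 CPM (-0.71 ± 0.10, adjusted p = 9.04e-05), and LPIN1 at 96.6 and 99.9 CPM against 129 and 145 CPM (0.48 ± 0.10, adjusted p = 0.0023, and -0.07 under spike-in scaling).

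Genes of the ATF4 response, which import and make amino acids under stress, had 8 of 19 members higher and none lower. The median was 0.37, and -0.14 under spike-in scaling, 0.62 without RSV replicate 1 and 0.22 without RSV replicate 2. There were 4 higher without RSV replicate 2 and 5 without RSV+Vem replicate 1, and 4 were higher in all 5 fits. SLC7A5, the large neutral amino acid transporter LAT1, was at 1256 and 1116 CPM with RSV and at 2550 and 2535 CPM with RSV+Vem (1.10 ± 0.10, adjusted p = 7.67e-07). Its partner chain SLC3A2 was at 490 and 415 CPM against 950 and 883 CPM (1.02 ± 0.10, adjusted p = 3.13e-06). With Vem alone the log2 fold changes were 1.33 and 1.31, and no difference was called. The unfolded protein and heat shock list had 4 of 19 members lower and 1 higher (median -0.22, and -0.13 without RSV replicate 1). EDEM1, of endoplasmic reticulum degradation, was at 102 and 117 CPM against 55.0 and 60.5 CPM (-0.93 ± 0.10, adjusted p = 1.16e-05). The chaperones PDIA4 and HSP90B1 fell by 0.65 and 0.59 on the log2 scale, and the small heat shock gene HSPB1 rose by 0.76.

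The genes that build ribosomes fell slightly. Ribosome biogenesis had 16 of 28 members lower and none higher (median -0.34), with 8 lower without RSV replicate 1, 7 without RSV+Vem replicate 1 and 6 without RSV+Vem replicate 2. GNL3, the nucleolar protein nucleostemin, was at 92.1 and 88.1 CPM against 56.0 and 53.6 CPM (-0.71 ± 0.10, adjusted p = 0.000128), and NOP58, of the snoRNA particles, at 182 and 182 CPM against 109 and 113 CPM (-0.71 ± 0.11, adjusted p = 0.000327). Both fell further with Vem alone (-1.26 and -1.35), by called differences. RRP12, of ribosome export, fell by 0.64 on the log2 scale with RSV and was not called without RSV (-0.07). Cytosolic ribosomal proteins had 17 of 36 lower and none higher (median -0.24), with 9 lower without RSV replicate 1 and 3 without RSV+Vem replicate 2. RPS6 was at 808 and 808 CPM against 589 and 592 CPM (-0.45 ± 0.08, adjusted p = 0.000841). Among tRNA synthetases 4 of 20 were higher and 2 lower, with 1 higher when RSV replicate 2 or either RSV+Vem library was left out. Over all tested genes 11.2% were higher and 13.1% lower. TARS was at 416 and 406 CPM against 534 and 562 CPM (0.41 ± 0.08, adjusted p = 0.00149, and -0.13 under spike-in scaling).

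The interferon list had 7 of 24 members lower and 1 higher (median -0.31), with 4 lower without RSV+Vem replicate 1. OAS1, an antiviral enzyme, was at 4.64 and 5.94 CPM against 1.65 and 2.02 CPM (-1.57 ± 0.27, adjusted p = 0.000608), and ISG20 at 36.4 and 28.1 CPM against 15.1 and 13.0 CPM (-1.18 ± 0.14, adjusted p = 2.26e-05). The MHC class I and peptide loading list had 3 of 18 members higher and 3 lower (median 0.01), with 1 higher and 2 lower without RSV replicate 2 and 1 each way without RSV+Vem replicate 1. The shares over all tested genes with RSV were 11.2% higher and 13.1% lower. With Vem alone, 10 members of this list were higher and 1 lower, where 25.4% of all tested genes were higher and 27% lower. Members of this family share reads, so that their counts are uncertain.

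The largest changes by fold lay partly outside the lists. SPRR2D, a cornified envelope gene, was at 323 and 253 counts with RSV and at 4 and 3 counts with RSV+Vem. The latter lie close to the floor of 3 counts per library, so that its 62.7-fold lower level is uncertain. In CPM it was at 19.5 and 13.3 with RSV and at 0.213 and 0.337 with RSV+Vem (-5.97 ± 0.39, adjusted p = 6.04e-08). IL11, a cytokine of the interleukin 6 family, was at 59 and 41 counts with RSV and at 0 and 1 counts with RSV+Vem, and was at least 11.5-fold lower against a floor of 3 counts per library. VGF, a neuropeptide precursor, was at 76.8 and 45.4 CPM against 2.50 and 2.25 CPM (-4.66 ± 0.25, adjusted p = 3.75e-09), a larger fall than without RSV (-3.26) by a difference that was called. In vehicle VGF was at 21.8 and 21.0 CPM. Among increases, CTD-2006K23.1, a gene named after its clone, was at 7 and 2 counts with RSV and at 181 and 59 counts with RSV+Vem (5.00 ± 0.45, adjusted p = 1.15e-06). The log2 fold change was 6.22 without RSV replicate 1 and 4.28 without RSV replicate 2. It rose by 4.68 with Vem alone, and no difference was called. PTGDS, a prostaglandin D synthase, was at 1.99 and 1.52 CPM against 16.6 and 17.5 CPM (3.28 ± 0.18, adjusted p = 4.78e-09), and KCNJ13, a potassium channel, at 1.51 and 1.52 CPM against 6.92 and 8.77 CPM (2.34 ± 0.24, adjusted p = 5.26e-06). Both rose more with Vem alone (4.88 and 5.12), and the differences were called. C17orf77 was at 9.04 and 8.62 CPM against 121 and 84.9 CPM (3.55 ± 0.29, adjusted p = 4.26e-07). HIST1H2AC, a histone H2A gene of a family with near-identical copies and uncertain for that reason, was at 6.21 and 4.67 CPM against 43.2 and 42.0 CPM (2.97 ± 0.18, adjusted p = 1.04e-08).

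Few genes were called in opposite directions with and without RSV: 26 were higher with RSV and lower without, and 74 were lower with RSV and higher without. NOX4, a NADPH oxidase, was at 19.8 and 16.6 CPM with RSV and at 38.1 and 35.2 CPM with RSV+Vem (1.02 ± 0.18, adjusted p = 0.000713), against a log2 fold change of -0.58 with Vem alone. ECM1, a secreted matrix protein, was at 394 and 366 CPM against 107 and 135 CPM (-1.65 ± 0.11, adjusted p = 2.93e-08), against 0.44 with Vem alone. Here the vehicle libraries were at 104 and 101 CPM, so the RSV libraries stood above the rest. ITGAX, an integrin subunit of myeloid cells, was at 29.8 and 26.3 CPM against 11.8 and 11.7 CPM (-1.25 ± 0.17, adjusted p = 7.69e-05), and vehicle was again low at 3.59 and 3.84 CPM. LINC00462 was at 7.29 and 7.09 CPM against 2.77 and 2.47 CPM (-1.43 ± 0.24, adjusted p = 0.000559), and the vehicle libraries were at 7.69 and 5.34 CPM.

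The largest differences between both responses included genes whose Vem response was called without RSV and not with RSV. TIE1, an endothelial receptor kinase, was at 3.19 and 2.52 CPM with RSV and at 2.66 and 2.14 CPM with RSV+Vem, which overlap, and rose without RSV from 0.304 and 0.324 CPM to 2.23 and 3 CPM. SPTBN5, a spectrin chain, was at 6.15 and 5.04 CPM against 4.79 and 6.18 CPM, and rose without RSV from 1.22 and 1.01 CPM to 7.37 and 7.45 CPM. In both cases the RSV libraries were already near the Vem level. HES1, a Notch effector, fell in both settings, from 22.1 and 17.4 CPM to 9.84 and 9.22 CPM with RSV (-1.04 ± 0.21, adjusted p = 0.00182) and from 42.1 and 26.6 CPM to 1.95 and 1.15 CPM without.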

How the data were processed

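RNA of 501Mel cells was profiled in 12 libraries, 2 for each of 6 treatments. According to the submitters' protocol and processing notes, the authors made stranded mRNA libraries, read 2 × 75 bases, aligned the pairs to hg19 with STAR 2.4.0a and used featureCounts (Subread 1.5.0-p3) to count pairs for each gene symbol. The release of the annotation is not given in the sources used here. The deposited values are raw counts without normalization for 56638 symbols and 96 control sequences, and genes with 1 common symbol therefore have 1 common value. Genes named as antisense partners held a small part of the counts in each library (between 0.217% and 0.247%).

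Control sequences were removed and filterByExpr by group left 16080 genes. All 12 libraries were fitted together by quasi-likelihood in edgeR 4.0.16 (R 4.3.3), with a term for each group and TMM factors, and 4 of them, with TCDD, enter only that shared estimate of the spread (common biological coefficient of variation 0.0915). The two-sided F test of that fit, adjusted over all genes by Benjamini-Hochberg, was applied to RSV+Vem against RSV, to Vem against vehicle and to the difference between them. The SE given after ± was derived from that test, as the absolute log2 fold change divided by the square root of F. An exact permutation test of 1 gene cannot reach 0.05 with 2 against 2. Counts ranged from 8378655 to 25076925 per library, carry no molecular identifiers and vary more between replicates than counting noise. Folds against groups with 3 counts or fewer in each library are given as bounds.

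Genes were named by a rule: the 10 largest changes each way among called genes with groups that do not overlap and a mean count of at least 50, up to 3 called members each way per list, fixed anchor genes (a few genes the rule names are not reported here), the extreme differences between both responses, and genes called in opposite directions. Of those, the text gives mainly the ones whose call held with each of the 4 libraries left out. The gene lists were written from general knowledge or from the study's own plots. Comparison, rules and lists were chosen with earlier results of these data known. Promoters came from RefSeq (GRCh38.p14) by symbol.

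Alternatives were DESeq2 1.42.0, RLE factors, spike-in scaling, no filter, a replicate block, a filter of at least 10 counts everywhere, only the compared libraries, an absolute log2 fold change of at least 1 and each library left out. The steps were tested on simulated data. Plots were made in Python 3.11.15 with matplotlib 3.10.9.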

Additional observations from a re-analysis of the deposited data

Results flagged for a closer look

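These genes are singled out because the response to Vem differed between RSV-treated cells and cells without RSV, by edgeR's test of the difference at an adjusted p below 0.05. Values are the log2 fold change with RSV minus that without RSV. Of 103 genes named with a test, 27 had a positive and 24 a negative difference, and no explanation was tested. Over all 16080 tested genes 12% had a positive and 10.7% a negative called difference. Some of the 103 were named because their difference was extreme or their calls were opposite. Their share is therefore no result about these genes. Under spike-in scaling 6 differences were called over all genes, while RLE factors gave 3629 and DESeq2 3414.

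Among genes below ERK that fell in both settings the differences were 1.43 for ETV4, 2.66 for DUSP6, 1.43 for ETV5, 3.39 for SPRY4 and 2.28 for SPRY2. For HES1 it was 3.40. ATF3, which rose with RSV and was not called without RSV, differed by 1.10. In G1 control they were 0.56 for CCND1, 0.81 for CDC25A, 0.97 for CDKN1B, 0.58 for E2F1 and -1.47 for CDKN2B. For replication and division they were 1.04 for POLE, 0.72 for RRM2, 0.91 for E2F8, 0.84 for MKI67, 1.22 for AURKB and 1.12 for NCAPG. For repair they were 1.01 for FANCA, 0.91 for FANCI and 1.44 for BLM.

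Pigment and lineage genes differed by -1.02 for PMEL, -0.41 for GPR143, -0.58 for RAB32 and 0.43 for TFAP2A, and BCL2A1 by -1.28. Organelle genes differed by -1.02 for CTSD, -1.06 for ATP6AP1, -0.39 for GUSB, -0.85 for NPC1 and -0.70 for COX5B. Metabolic genes differed by 1.56 for HK2 and -0.55 for FTH1, and ribosome genes by 0.55 for GNL3, 0.64 for NOP58 and -0.57 for RRP12.

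For AhR and its targets the differences were 0.91 for AHR, 0.59 for TIPARP, -0.85 for AHRR and -0.61 for CYP1A1. LAMA4 differed by -0.97. Genes with the largest changes differed by -1.60 for PTGDS, -1.24 for HIST1H2AC, -2.78 for KCNJ13 and -1.40 for VGF. The genes TIE1 and SPTBN5 differed by -3.23 and -2.79. Genes with opposite responses differed by 1.60 for NOX4, -2.09 for ECM1, -2.25 for ITGAX and -2.03 for LINC00462.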

How the results depend on the processing

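The counts of called genes stayed within 1.5 times under DESeq2 (3319), RLE factors (3896), both filters (3557 and 4093), the compared libraries alone (3030), no scaling factors (3902, chosen after seeing the data) and the replicate block (4011), which changed no call of the genes named. The labels do not pair replicates by number. The correlation of replicate deviations was 0.149 for RSV with RSV+Vem and lay between -0.121 and 0.155 in 15 pairs of groups, above 0.1 in the 3 pairs among the groups with RSV. An absolute log2 fold change of at least 1 left 903 genes for RSV+Vem against RSV, 2958 for Vem against vehicle and 1142 differences. Spike-in scaling left 483, 3770 and 6, and 484 for RSV+Vem against RSV with RSV+Vem 2 left out (chosen after seeing the data); the cause was not tested. The median over all genes moved to -0.68 for Vem against vehicle and to 0.154 for the difference. Leaving out 1 library gave between 1975 and 3213 calls for RSV+Vem against RSV, between 6716 and 7604 for Vem against vehicle, and between 2364 and 3774 differences.

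Spike-in scaling turned the medians of the BCL2 family (-0.327), melanosome transport (-0.28), lineage regulators (-0.091), the study's pigmentation genes (-0.225), respiratory chain (-0.285) and ATF4 list (-0.138). It turned BCL2L11 (-0.026), PMEL (-0.066), MITF (-0.006), TYR (-0.117), SOX10 (-0.091), GPR143 (-0.029), CTSD (-0.016), ATP6AP1 (-0.004), ALDOA (-0.003), LPIN1 (-0.072) and TARS (-0.125). With 1 of the 4 libraries left out the phenotype switch median lay between -0.107 and 0.043 and that of the AhR list between -0.098 and 0.004. With 2 libraries per group and 1 at 8378655 counts, small changes of low genes were beyond the depth.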
